A study of Homo sapiens with 24 samples.

Results

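Heat shock chaperones are proteins that bind unfolded or newly made polypeptides and help them to fold. The 10 genes described here were chosen by name, as HSPA1A, HSPA1B, HSPA8, HSP90AA1, HSPH1, DNAJB1, HSPB1, BAG3, HSPD1 and HSPE1, out of 60617 genes in the raw count table, and each of the 10 symbols matched 1 Ensembl gene. RNA was measured by RNA-seq in MDA686TU cells, an established line grown from a squamous carcinoma of the head and neck, in 24 libraries. The 4 groups of 6 libraries were untreated cells (NT), cells given 40 µM epigallocatechin gallate (EGCG, the main catechin of green tea), cells given 15 µM resveratrol (a stilbenoid of grape skin), and cells given the combination at the same doses, each for 24 h. The labels do not say that the 6 replicates of a group were separate cultures, so p-values measure the spread between these libraries, which may be technical. All groups are a single cell line, and the resveratrol stock was made in DMSO while the study does not say whether untreated cells received it, so resveratrol and its solvent cannot be told apart.

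In the cytosol, the HSP70 family (the constitutive HSPA8 and the stress-inducible HSPA1A and HSPA1B) binds exposed hydrophobic stretches and releases them in cycles of ATP hydrolysis. J-domain proteins such as DNAJB1 bring substrates and trigger hydrolysis, while HSPH1 and BAG3 exchange the nucleotide. HSP90AA1 acts late, on clients such as kinases and steroid receptors. HSPD1 and its lid HSPE1 form the folding chamber of the mitochondrial matrix, and HSPB1 is a small heat shock protein that holds unfolding proteins without ATP. Under proteotoxic stress the transcription factor HSF1 binds heat shock elements, which are runs of alternating GAA and TTC units, and raises the transcription of many of these genes.

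The letters of that element were looked for on both strands of each gene's promoter window, 250 bases before to 50 after a RefSeq start site (GRCh38.p14). The longer form, GAANNTTCNNGAA, was present in a window of HSPA8, HSP90AA1 and HSPD1, which is 3 of 10 chaperones, against 0.608% of 27305 genes with a window. The shorter form searched was GAANNTTC or TTCNNGAA, each its own reverse complement and part of the longer form. It was present for 7 of 10 chaperones (also HSPA1A, HSPA1B, HSPB1 and DNAJB1), against 16.2% of genes. HSPE1, HSPH1 and BAG3 had neither in these windows. The HSPE1 window begins at chr2:197500129, so the HSPD1 stretch at chr2:197500061-197500090 lies just outside it, upstream of HSPE1. The stretches below are printed 5′ to 3′ on the gene's strand, with matched letters in capitals, so that the 3 genes with the longer form (HSPA8, HSPD1, HSP90AA1), a near-identical pair (HSPA1A, HSPA1B) and 2 genes with small changes (DNAJB1, HSPB1) can be seen side by side. For HSPA8, HSPD1 and DNAJB1 only 30 bases around a match are shown.
HSPA8, chr11:123062345-123062374, minus strand, first match at -230 from the start: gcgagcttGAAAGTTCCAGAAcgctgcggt
HSPA8, chr11:123062170-123062199, minus strand, match at -55: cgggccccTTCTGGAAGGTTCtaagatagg
HSPD1, chr2:197500061-197500090, minus strand, overlapping matches from -245: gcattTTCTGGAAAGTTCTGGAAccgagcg
DNAJB1, chr19:14518453-14518482, minus strand, match at -77: gcggggcgGAAGGTTCtggagggggctggc
DNAJB1, chr19:14518423-14518452, minus strand, match at -47: gggctctgGAAGCTTCcgccggacgggtat
HSPA1A, chr6:31815293-31815542, plus strand, match at -106: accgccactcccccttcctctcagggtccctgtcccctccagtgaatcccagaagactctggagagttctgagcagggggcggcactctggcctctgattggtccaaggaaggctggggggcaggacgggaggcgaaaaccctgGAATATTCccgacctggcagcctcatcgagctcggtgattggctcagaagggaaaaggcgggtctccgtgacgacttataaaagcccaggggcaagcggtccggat
HSPA1B, chr6:31827488-31827737, plus strand, match at -105: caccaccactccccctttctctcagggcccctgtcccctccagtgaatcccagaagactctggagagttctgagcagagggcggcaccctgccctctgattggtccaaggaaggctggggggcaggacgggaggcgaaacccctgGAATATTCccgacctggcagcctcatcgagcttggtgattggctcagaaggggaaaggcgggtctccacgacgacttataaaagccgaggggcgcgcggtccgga
HSPB1, chr7:76302423-76302672, plus strand, match at -182: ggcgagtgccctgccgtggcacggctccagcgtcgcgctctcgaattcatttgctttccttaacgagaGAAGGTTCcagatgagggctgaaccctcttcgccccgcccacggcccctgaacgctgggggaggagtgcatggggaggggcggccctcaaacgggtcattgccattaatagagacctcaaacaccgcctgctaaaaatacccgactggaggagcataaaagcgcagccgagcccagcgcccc
HSP90AA1, chr14:102087045-102087294, minus strand, matches from -88: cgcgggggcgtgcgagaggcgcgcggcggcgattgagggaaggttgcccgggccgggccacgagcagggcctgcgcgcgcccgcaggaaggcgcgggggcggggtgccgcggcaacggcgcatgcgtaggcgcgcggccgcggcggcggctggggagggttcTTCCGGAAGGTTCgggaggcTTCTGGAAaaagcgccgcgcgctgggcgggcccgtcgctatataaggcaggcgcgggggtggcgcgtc
A match is a description of letters, and binding was not measured.

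Library totals ranged from 7034872 to 11735574 counts, and the 10 chaperones had between 899 and 39553 raw counts in every library, the fewest for BAG3 and the most for HSP90AA1. All 7 squamous epithelial markers looked at (KRT5, KRT14, KRT6A, KRT17, TP63, DSG3 and SFN) were present at 22.1 FPKM or more in every library. Of 10 markers of other cell types, the leukocyte genes PTPRC, CD3E and CD68 reached at most 1, 1 and 11 counts in any library and the endothelial genes PECAM1, CDH5 and VWF at most 1, 4 and 20. The fibroblast genes COL3A1, PDGFRB and COL1A2 reached at most 1, 2 and 33 counts, while COL1A1 stood at 10.2 to 20.0 FPKM. The share of mitochondrial transcripts split the libraries: it was 0.249% to 0.326% for replicates 1 to 3 of every group, but 0.448% to 0.775% for replicates 4 to 6. No batch is named in the sources, and changes within each of these 2 sets of replicates are given beside the pooled ones.

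Read per length, as FPKM (fragments per length of gene and per depth of library), HSP90AA1 had the highest level of the 10 in untreated cells, at 690.3 ± 21.8 (SD, n = 6). HSPD1 followed at 443 ± 10.1 and HSPA8 at 405 ± 11.2, and the libraries of these 3 genes did not overlap. HSPB1 stood at 271 ± 12.8 and HSPA1A at 249.8 ± 6.01, with overlapping libraries. HSPA1B at 129 ± 4.34 and HSPE1 at 126 ± 5.44 also overlapped, and below them were DNAJB1 at 66.0 ± 1.08, HSPH1 at 53.6 ± 0.842 and BAG3 at 47.5 ± 0.662. Of the 50-base words of the HSPA1A, HSPA1B and HSPE1 transcripts, 75.1%, 73.6% and 48.2% also occur in other genes. How such reads were counted is not given, so the ranks of these genes may depend on it. With the combination HSPA8 stood at 248 ± 9.57 FPKM and HSPB1 at 284 ± 21.1, so that HSPB1 was the third of the 10 in mean level and HSPA8 the fourth, with libraries that overlapped by a narrow margin. Together the 10 genes took 0.957% ± 0.0168 of all counts in untreated cells. This share was 0.911% ± 0.00840 after EGCG, 0.806% ± 0.0141 after resveratrol and 0.756% ± 0.0202 after both agents.

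**Figure D1:**
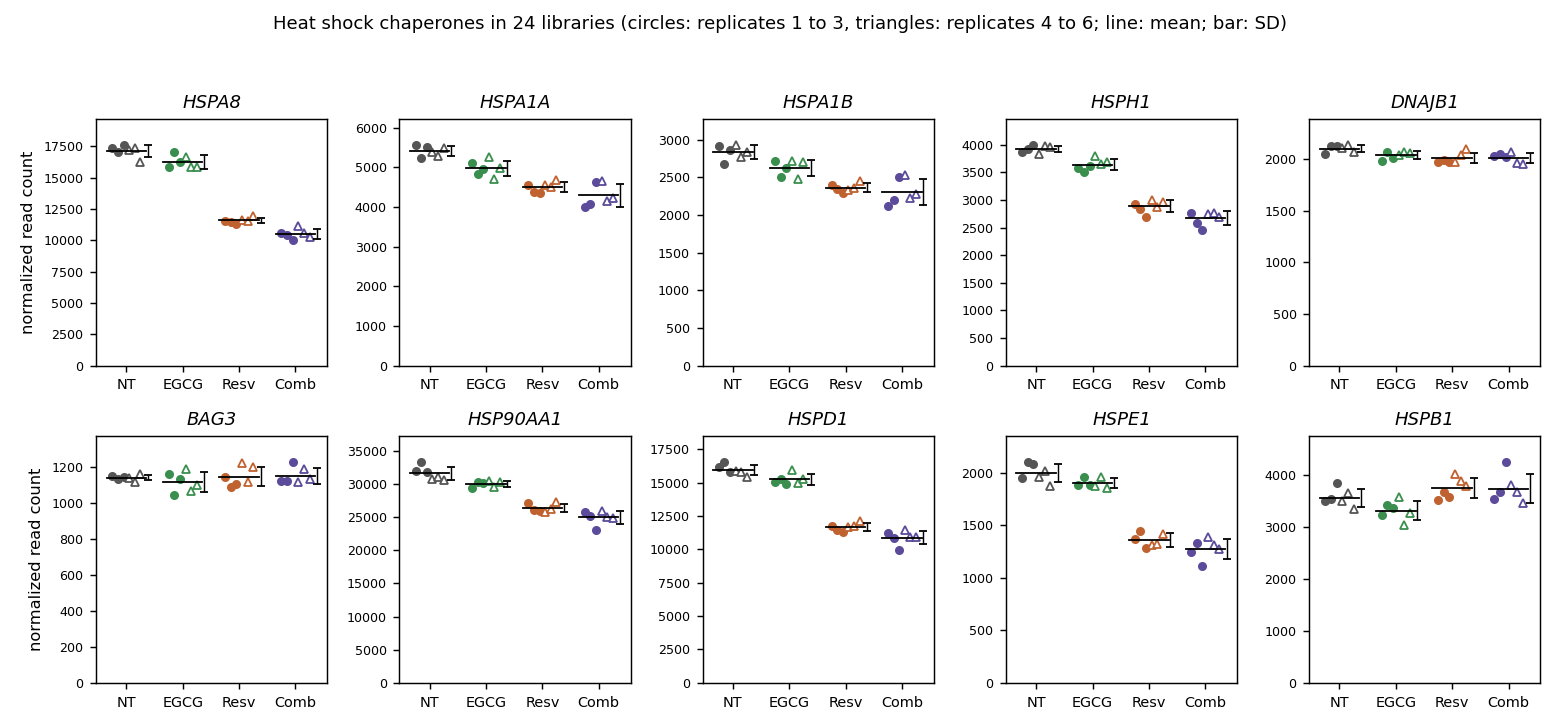
Normalized read count (vertical axis, from 0) of each of the 10 chaperones in all 24 libraries, by group (NT, EGCG, resveratrol as Resv, combination as Comb). Each point is a library, the horizontal line is the mean of 6 and the bar its SD. HSPA8, HSPH1, HSPD1, HSPE1, HSP90AA1, HSPA1A and HSPA1B sit lower in every resveratrol and combination library than in any untreated library, while BAG3, HSPB1 and DNAJB1 overlap.

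With resveratrol alone, 8 of the 10 chaperones were called lower and none was called higher. Among the 8, the call of DNAJB1 was lost under several other settings, given below. A gene was called when its Benjamini-Hochberg adjusted p from edgeR's quasi-likelihood test was under 0.1 and its unadjusted p under 0.05, and all fold changes are from that fit on raw counts. In this comparison 56.9% of the 15476 genes tested were called and 28% were called lower, so a call is common. The median log2 fold change of the 10 was -0.26, beside 0.0037 over all genes tested. In 7 of the 10, every resveratrol library was below every untreated library, which held for 15.8% of all genes. In bulk RNA, less RNA per cell and fewer cells in a state that expresses a gene cannot be told apart.

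With the combination the same count, 8 of 10, was called lower against untreated cells, again with a DNAJB1 call that several other settings removed. In this comparison 59.8% of genes were called and 29.9% were called lower. The median of the 10 was -0.33, beside -0.0015 over all genes. Again 7 of 10 did not overlap with the untreated libraries, as did 16.3% of all genes in the lower direction. HSPA8 and HSPE1 were the 2 chaperones called with a change of at least 1.5-fold, a size passed by 11.9% of genes. The comparisons with untreated cells share the untreated libraries.

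HSPA8, the constitutive cytosolic HSP70 (chr11:123057489-123063230), had the largest change of the 10 with the combination. With resveratrol it was about level with HSPE1, which was at -0.55 ± 0.039. Its normalized counts in untreated cells were 16229 at the lowest, 17243 at the median and 17577 at the highest. The same values were 15814, 16028 and 17072 after EGCG. They were 11331, 11523 and 11941 after resveratrol, and 9981, 10469 and 11173 after both agents. The resveratrol and combination libraries lay below all others and did not overlap with each other, while EGCG and untreated libraries overlapped. The log2 fold change was -0.56 ± 0.025 (SE) with resveratrol (adjusted p = 8.09e-20) and -0.70 ± 0.026 with the combination (adjusted p = 6.02e-23), the latter a level of 0.614 of untreated cells. Within replicates 1 to 3 the values were -0.59 and -0.75, and within replicates 4 to 6 they were -0.53 and -0.66. Pseudogenes named after HSPA8 held 4.87% as many counts as the gene, and 16.8% of the 50-base words of its transcript occur in another gene.

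The inducible pair HSPA1A (chr6:31815543-31817946) and HSPA1B (chr6:31827738-31830254) lies 9791 bases apart, and their promoter windows were 92.0% identical. Of the 50-base words of the HSPA1A transcript, 75.1% also occur in HSPA1B, so how reads were divided between them is uncertain. HSPA1A had normalized counts of 5231, 5444 and 5561 (lowest, median, highest) in untreated cells, 4343, 4529 and 4686 after resveratrol, and 4006, 4194 and 4660.3 after the combination. HSPA1B had 2679, 2854 and 2927 in untreated cells, 2289.8, 2353 and 2458 after resveratrol, and 2115, 2252 and 2531 after the combination. Replicates 3 and 4 of the combination were above the other 4 libraries for both genes. Their log2 fold changes with resveratrol were equal to 2 decimals, at -0.26, and with the combination they were -0.33 ± 0.034 for HSPA1A and -0.29 ± 0.037 for HSPA1B. The ratio of HSPA1A to HSPA1B stayed between 1.84 and 1.95 in all 24 libraries. Their sum, which does not depend on the division of reads, fell by 0.26 on the log2 scale with resveratrol (adjusted p = 4.72e-08) and by 0.32 with the combination (adjusted p = 4.63e-10).

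HSPH1, the HSP110 that works as a nucleotide exchange factor for HSP70 (chr13:31134973-31162388), shares no 50-base word with another gene. Its normalized counts ran from 3836 through a median of 3935 to 3993 in untreated cells. They ran from 2697 through 2898 to 3008 after resveratrol, and from 2450.2 through 2715 to 2774 after the combination, with no overlap with untreated cells in either. The log2 fold changes were -0.44 ± 0.031 (adjusted p = 1.44e-14) and -0.55 ± 0.031 (adjusted p = 1.68e-17). The values were -0.47 and -0.59 within replicates 1 to 3, and -0.41 and -0.52 within replicates 4 to 6.

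The other HSP70 partners among the 10 had small changes. BAG3, which links HSP70 to small heat shock proteins and selective autophagy (chr10:119651380-119677819), was not called in any of the 7 comparisons. Its normalized counts had medians of 1138 in untreated cells, 1116 after EGCG, 1130.0 after resveratrol and 1128 after the combination, and the groups overlapped. The 95% interval of its change was -0.06 to 0.08 with resveratrol and -0.06 to 0.09 with the combination on the log2 scale. These intervals do not reach the changes of HSPA8 or HSPH1. DNAJB1, the inducible type B J-domain protein (chr19:14514769-14560391), had counts of 2052, 2116 and 2137 in untreated cells, 1974, 1986 and 2097 after resveratrol, and 1951, 2025 and 2070.2 after the combination. Its change was -0.06 ± 0.027 in both comparisons, with adjusted p = 0.0533 and 0.0607, and the groups overlapped. The call was lost in each set of replicates alone (-0.08 and -0.04 in replicates 1 to 3, -0.05 and -0.08 in replicates 4 to 6). Scaled by library size alone, the change of DNAJB1 was 0.03 and 0.02, so its direction rests on the scaling. DNAJB1 overlaps TECR on the other strand, and the strand setting of the counting is not given.

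HSP90AA1, the inducible cytosolic HSP90 (chr14:102080742-102139699), had normalized counts of 30569, 31476 and 33279.8 in untreated cells, 25783, 26172 and 27335 after resveratrol, and 23081, 25092 and 25889.7 after the combination. All libraries with resveratrol, alone or combined, were lower than the untreated ones. The log2 fold changes were -0.26 ± 0.023 (adjusted p = 1.58e-11) and -0.34 ± 0.023 (adjusted p = 7.81e-15). They were -0.29 and -0.39 within replicates 1 to 3, and -0.22 and -0.29 within replicates 4 to 6. Pseudogenes named after HSP90AA1 held 13.5% as many counts, mostly HSP90AA2P, whose own change was -0.27 and -0.37.

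The genes of the mitochondrial chaperonin and its lid stand head to head on chromosome 2, and their annotated spans overlap (HSPD1 at chr2:197486584-197516737 on the minus strand, HSPE1 at chr2:197500140-197503449 on the plus strand). The span of HSPE1, with a mean raw count of 1660, lies within that of HSPD1, with 13618. As the strand setting of the counting is not given, how far HSPD1 reads entered the HSPE1 counts is unknown. HSPD1 had normalized counts of 15445, 15839 and 16518 in untreated cells, 11336, 11691 and 12156 after resveratrol, and 9939, 10917 and 11429.9 after the combination. HSPE1 had 1876, 1988 and 2100.2 in untreated cells, 1286, 1347 and 1443 after resveratrol, and 1115, 1291 and 1388 after the combination. In neither gene did a resveratrol or combination library reach the lowest untreated one. HSPD1 changed by -0.44 ± 0.026 with resveratrol (adjusted p = 1.17e-16) and -0.55 ± 0.026 with the combination (adjusted p = 2.14e-19). HSPE1 changed by -0.55 ± 0.039 (adjusted p = 1.84e-14) and -0.65 ± 0.039 (adjusted p = 1.99e-16). Within replicates 1 to 3 the combination value of HSPE1 was -0.73 and within replicates 4 to 6 it was -0.56. Many reads of this pair also match processed copies: named pseudogenes held 23.3% as many counts as HSPD1 and 40.2% as many as HSPE1. With those counts added, the combination values were -0.56 for HSPD1 and -0.66 for HSPE1, a check chosen after seeing the data.

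HSPB1, the small heat shock protein also known as HSP27 (chr7:76302673-76304295), was not called against untreated cells in the fit over all libraries, but several other settings called it higher. Its normalized counts were 3339, 3516 and 3836 in untreated cells, 3045, 3308 and 3579 after EGCG, 3522, 3729.6 and 4018 after resveratrol, and 3453, 3678 and 4240.3 after the combination, all overlapping. The change was 0.08 ± 0.042 with resveratrol (adjusted p = 0.129) and 0.07 ± 0.042 with the combination (adjusted p = 0.145). The 2 sets of replicates differed in the resveratrol value, which was -0.01 in replicates 1 to 3 (adjusted p = 0.948) and 0.16 in replicates 4 to 6 (adjusted p = 0.00516). Scaled by library size alone, HSPB1 was called higher in both comparisons, at 0.16 with adjusted p = 0.000739 and 0.00121, and BAG3 was then called higher as well, at 0.10 with adjusted p = 0.0164 and 0.0149. HSPB1 was also called higher in both comparisons when genes under 10 counts in any library were dropped (0.10 in each, adjusted p = 0.0337 and 0.0384), and when the compared groups were fitted alone (0.08 and 0.09, adjusted p = 0.0415 and 0.0621). Leaving out 1 library made it called in 8 of 24 fits with resveratrol and 7 of 24 with the combination, and over all 24 its change ranged from 0.05 to 0.10 and from 0.03 to 0.10. In both comparisons these were the fits without untreated replicate 3 or 5 or EGCG replicate 1, 2, 4 or 6, together with resveratrol replicate 1 or combination replicate 3 for the first and combination replicate 6 for the second.

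**Figure D2:**
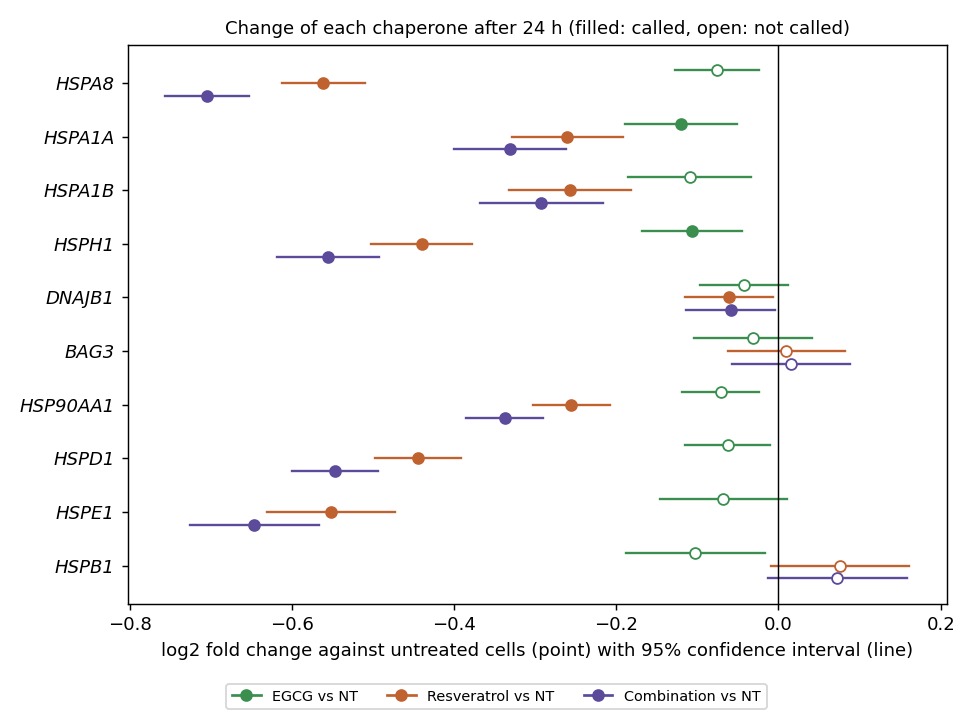
Log2 fold change against untreated cells (horizontal axis; point) with its 95% confidence interval (line) for each of the 10 chaperones after EGCG, resveratrol or the combination; filled points were called. HSPA8 and HSPE1 lie farthest to the left at -0.70 and -0.65 with the combination, BAG3 and HSPB1 lie on the right of 0 with resveratrol and the combination, and every EGCG point lies between -0.12 and -0.03.

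EGCG alone was compared with untreated cells to see what this agent did by itself, and its changes were small. Of the 10 chaperones, 2 were called, both lower, beside 1.76% of all genes called and 0.859% called lower. HSPA1A, with counts of 4712, 4972 and 5260.0 after EGCG, changed by -0.12 ± 0.034 (adjusted p = 0.0734), and HSPH1, with 3505, 3637 and 3801, by -0.11 ± 0.031 (adjusted p = 0.0809). HSPA1B, the near-identical copy of HSPA1A, was at -0.11 ± 0.037 and not called (adjusted p = 0.193). The sum of the pair was called at -0.12 (adjusted p = 0.0893), a call lost in 13 of 24 fits with 1 library left out. All 10 log2 fold changes were below 0, as were 49.5% of those of all genes, and their median was -0.07 beside 0.00090 over all genes. HSPH1 and HSP90AA1 did not overlap with the untreated libraries, as was the case for 0.801% of genes in the lower direction, and the HSP90AA1 change of -0.07 ± 0.023 had adjusted p = 0.17. No chaperone was called within replicates 1 to 3 or within replicates 4 to 6, with HSPA1A at -0.12 in each and HSPH1 at -0.13 and -0.08. Leaving out a single library gave between 0 and 3 calls, with 0 without replicate 1, 3 or 4 of the untreated group or replicate 3 or 5 of the EGCG group, and 1 without replicate 2, 5 or 6 of the untreated group or replicate 1 or 2 of the EGCG group.

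The combination was set against resveratrol alone to see what EGCG added. Of the 10 chaperones 4 were called, all lower, where 7.86% of all genes were called and 3.86% called lower. HSPA8 changed by -0.14 ± 0.025 (adjusted p = 0.000288), HSPH1 by -0.12 ± 0.031 (adjusted p = 0.0214), HSPD1 by -0.10 ± 0.026 (adjusted p = 0.0137) and HSP90AA1 by -0.08 ± 0.023 (adjusted p = 0.0312). HSPA8 alone among the 10 had libraries that did not overlap, with 11331 normalized counts in the lowest resveratrol library and 11173 in the highest combination library, a pattern of 1.4% of genes. Within replicates 1 to 3 and within replicates 4 to 6 HSPA8 was the 1 chaperone still called, at -0.15 and -0.13, and the other 3 kept their sign. HSP90AA1 also lost its call once all genes with a count were tested (-0.08, adjusted p = 0.119). Leaving out 1 library gave 4 to 6 calls, with HSPA1A added without combination replicate 3, and HSPA1A and HSPE1 without combination replicate 4. HSPE1 at -0.09 ± 0.040, HSPA1A at -0.07 ± 0.034 and HSPA1B at -0.04 ± 0.038 had adjusted p of 0.193, 0.264 and 0.686. HSPE1 was at -0.16 in replicates 1 to 3 and -0.03 in replicates 4 to 6. DNAJB1 (0.0024), HSPB1 (-0.0038) and BAG3 (0.0061) changed sign between the 2 sets of replicates, and their 95% intervals reached no further than 0.09 on either side of 0.

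**Figure D3:**
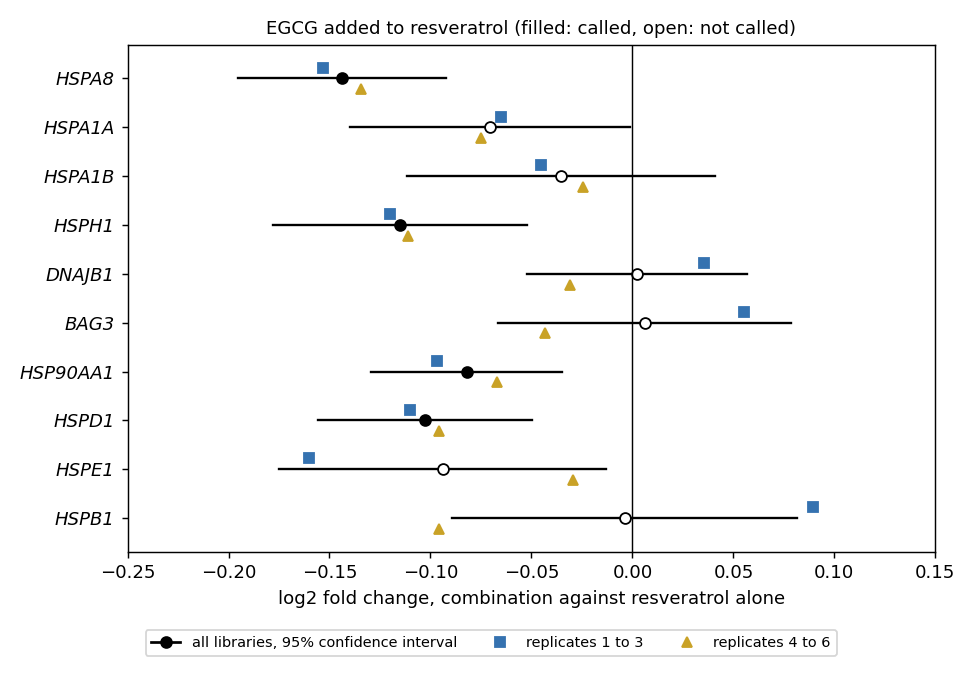
Log2 fold change of the combination against resveratrol alone (horizontal axis) for the 10 chaperones. Circles with lines are the fit over all libraries with its 95% confidence interval (filled when called), squares are replicates 1 to 3 and triangles replicates 4 to 6. HSPA8, HSPH1, HSPD1 and HSP90AA1 are filled and left of 0 in both sets of replicates, while DNAJB1, BAG3 and HSPB1 have their sets on opposite sides of 0.

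The interaction asks whether the combination differed from the sum of the single agents on the log2 scale. None of the 10 chaperones was called by edgeR, and none had an unadjusted p under 0.05, beside 0.265% of all genes called. DESeq2 also called 0. The interaction of HSPA8 was -0.07 ± 0.036, with a 95% interval from -0.14 to 0.00. EGCG thus went with a change of -0.14 in the presence of resveratrol and -0.08 in its absence, and this difference had adjusted p = 0.697.

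Against EGCG, 8 of 10 chaperones were called with the combination, 7 lower and 1 higher, where 57.8% of genes were called, 29.1% lower and 28.7% higher. The same numbers, 8 called with 7 lower and 1 higher, held for resveratrol against EGCG, where 55% of genes were called, 27.3% lower and 27.7% higher. The one called higher than with EGCG was HSPB1, at 0.17 ± 0.042 with the combination (adjusted p = 0.000684) and 0.18 ± 0.042 with resveratrol (adjusted p = 0.000592), although its libraries overlapped in both. Within replicates 1 to 3 these values were 0.20 and 0.11, and within replicates 4 to 6 they were 0.15 and 0.25, of which the 0.11 was not called (adjusted p = 0.107). Against untreated cells HSPB1 was at -0.10 ± 0.042 with EGCG (adjusted p = 0.339), 0.08 with resveratrol and 0.07 with the combination. None of these was called in the fit over all libraries. DNAJB1 and BAG3 were the 2 not called in either comparison. HSPA8 changed most with the combination here too, at -0.63 ± 0.026. With resveratrol against EGCG, HSPA8 at -0.49 ± 0.025 and HSPE1 at -0.48 ± 0.039 were about level. Within replicates 4 to 6 these 2 values were -0.46 and -0.49.

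Around the 10 genes, 11 lists of other chaperone genes were looked at, and counts are given for resveratrol and then for the combination against untreated cells. Of all genes tested, 28.9% were called higher and 28% lower with resveratrol, and 29.9% higher and 29.9% lower with the combination, and each list's counts stand beside these shares. Of the HSF factors, 4 of 5 were tested. HSF1, the heat shock transcription factor itself, changed by -0.07 ± 0.033 with resveratrol (unadjusted p = 0.0499, adjusted p = 0.0877). It was thus called lower just inside the limit, and this call was lost in 17 of 24 fits with 1 library left out. With the combination HSF1 was at -0.05 and not called (adjusted p = 0.243). Scaled by library size alone, it was at 0.02 and 0.04. HSF2 was downregulated, at -0.31 and -0.42, HSF4 was upregulated at 0.71 and 0.78, and HSBP1, which binds HSF1, was at -0.06 and -0.07 and not called. Of 19 tested genes among 20 other heat-inducible HSF1 targets, 10 were lower and 3 higher with resveratrol, and 10 lower and 4 higher with the combination, with medians of -0.28 and -0.22. This list shares genes with the others.

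Of 14 tested genes for cytosolic HSP90 and its co-chaperones, 9 were lower and 3 higher with resveratrol and 9 lower and 2 higher with the combination, with medians of -0.22 and -0.31. HSP90AB1, the constitutive paralog of HSP90AA1, changed by -0.61 ± 0.023 and -0.67 ± 0.024. FKBP4, an immunophilin of steroid receptor complexes, changed by -0.53 and -0.69, CHORDC1, a zinc-binding HSP90 partner, by -0.64 and -0.80, and STIP1, which joins HSP70 to HSP90, by -0.49 and -0.56. CHORDC1 and FKBP4 were also called with EGCG, at -0.21 ± 0.038 (adjusted p = 0.00133) and -0.14 ± 0.030 (adjusted p = 0.00565). Of 10 HSP70 co-chaperones 5 were lower and none higher in both comparisons, with medians of -0.12 and -0.14, DNAJC7 at -0.21 and -0.30, ST13 at -0.15 and -0.23 and SGTA at -0.30 and -0.27 among them.

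All 8 subunits of the cytosolic TRiC chaperonin, which folds actin and tubulin, were called lower in both comparisons, with medians of -0.37 and -0.42. CCT4 changed by -0.50 and -0.61, CCT5 by -0.48 and -0.55 and CCT6A by -0.44 and -0.56, and CCT6A was also called with EGCG at -0.09 (adjusted p = 0.0796). Of the 6 prefoldin subunits, which pass substrates to TRiC, 5 and then 3 were lower and none higher, with medians of -0.16 and -0.11. PFDN4 was at -0.30 and -0.47, VBP1 at -0.25 and -0.42 and PFDN6 at -0.15 and -0.16. Of 11 mitochondrial proteostasis genes, not all of them matrix genes, 5 and then 6 were lower and 2 higher in each. Their medians were -0.08 and -0.09. Among them were GRPEL1 at -0.25 and -0.23 and LONP1, a matrix protease, at 0.08 and 0.23. The list also holds YME1L1, called lower in both comparisons at -0.20 and -0.22, and HTRA2, called in neither.

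In other families calls lay in both directions. Of 4 organelle HSP70 and HSP90 genes 3 were lower and 1 higher in both comparisons: TRAP1 of the mitochondria at -0.35 and -0.37 and HSP90B1 of the endoplasmic reticulum at -0.25 and -0.29 fell, and HSPA5 of the endoplasmic reticulum rose, at 0.14 and 0.28. TRAP1 and HSPA9, both called lower, are also counted in the mitochondrial list above. Of 6 tested genes among 8 other cytosolic HSP70 and HSP110 genes, 3 were higher and 2 lower in both, with HSPA2 at 0.47 and 0.60, HSPA4 at -0.31 and -0.41 and HSPA14 at -0.78 and -1.0. Of 11 other type A and B J-domain proteins 4 were lower and 4 higher, then 3 and 3, shares near those of all genes, with DNAJA1 at -0.34 and -0.38, DNAJB4 at 0.84 and 0.83 and DNAJB9 at 0.97 and 1.05. Only 2 of 8 other small heat shock proteins had enough counts to be tested, of which HSPB8, the partner of BAG3, was upregulated at 0.63 and 0.78, and CRYAB was not called at 0.37 and 0.09. The medians of these 3 families and of the organelle list lay between -0.19 and 0.50 in these comparisons.

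**Figure D4:**
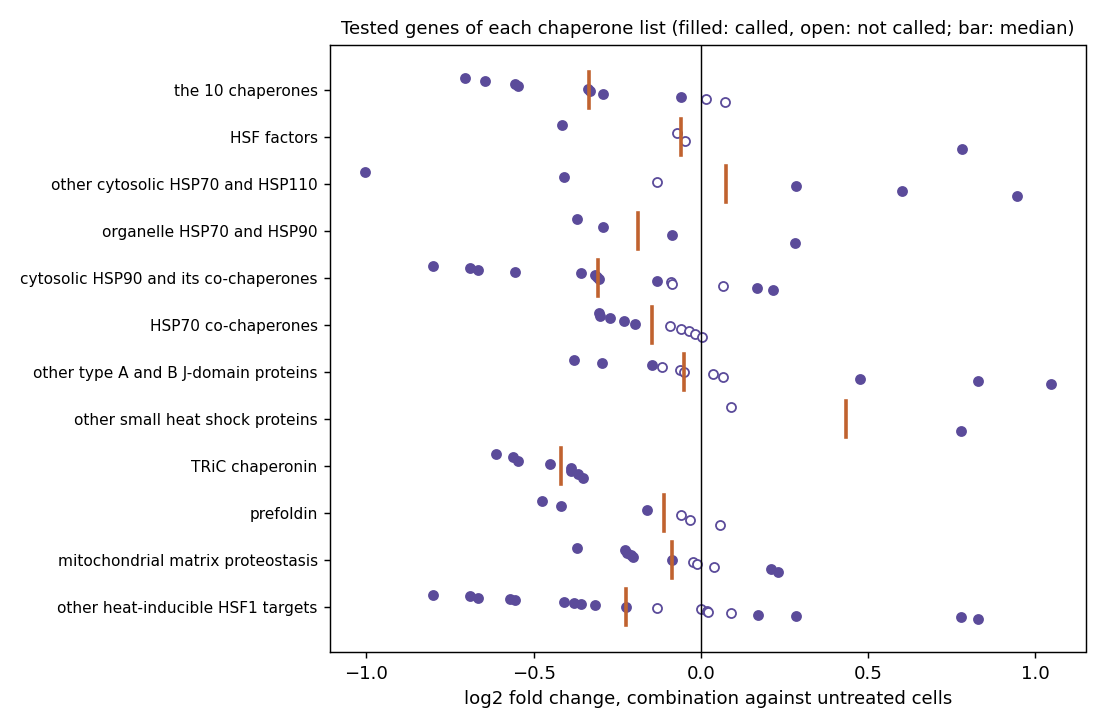
Log2 fold change of the combination against untreated cells (horizontal axis) for every tested gene of the 10 chaperones and of the 11 lists (rows). Filled points were called, open points were not, and the bar is the list's median. The 8 TRiC subunits all lie left of 0 with a median of -0.42, whereas the J-domain, HSP70 and small heat shock protein rows spread to both sides.

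For 4 of the 10, the non-member genes with the most similar log2 CPM over the 24 libraries were looked up, as a description that includes the shared group means. HSPA8 was most like NPM1 (Pearson's r = 0.991) and the NPM1 pseudogene NPM1P27 (0.991). HSPD1 was most like the TRiC subunit CCT6A (0.994), then NPM1 (0.990) and NPM1P27 (0.988). HSPB1 was most like MAP2K2 (0.861), DUS1L (0.818) and RECQL4 (0.811). DNAJB1 had no gene above 0.767, which was DDX55, followed by NUP85 (0.750) and ENSG00000242477 (0.737).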

How the data were processed

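The authors made stranded mRNA libraries (TruSeq), sequenced paired reads, demultiplexed with bcl2fastq 2.17.1.14, trimmed with Trimmomatic 0.36, checked with FastQC 0.11.5, aligned to GRCh38 with HISAT2 2.0.4 and sorted with SAMtools 1.3.1. The counting program, annotation release, strand setting and treatment of multi-mapping reads are not given in the sources used here. The authors deposited raw counts per gene, normalized counts (a signal: the counts divided by 1 size factor per library, with DESeq2 1.20.0) and FPKM.

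Raw counts of all 24 libraries (7034872 to 11735574 per library) entered 1 model with a term per group in edgeR 4.0.16 (R 4.3.3; TMM scaling, filterByExpr), giving 15476 tested genes and 7 comparisons. The call limits follow the study's methods. SE is the fold change over the root of F. Normalized counts give levels and FPKM gives levels between genes. Members and lists were chosen with earlier results of these data known. The text names the 10 members, the HSF factors, per list the 3 genes with the smallest p for the combination against untreated cells, and up to 2 called with EGCG. One gene similar to HSPA8 is not reported here. Symbols came from GENCODE v44, promoters from RefSeq, and alignments from Biopython 1.88. A simulation with 200 changed genes among 15408, for the combination against untreated cells, tested the edgeR and DESeq2 1.42.0 steps. Of the 200 changed genes, edgeR recovered 161 and DESeq2 157, so both missed some. Alternatives were DESeq2, other scalings, filters and thresholds, the groups compared alone, the replicate number as a block, replicates 1 to 3 or 4 to 6, each library left out, and, chosen after seeing the data, pseudogene counts added.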

Additional observations from a re-analysis of the deposited data

Results flagged for a closer look

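In 40 groups of 6 libraries (10 chaperones in 4 groups), 2 had a library far from the others. The lowest untreated library for HSPA8, replicate 6, had 16229 normalized counts, and its gap to the next library (17071.5) was 0.625 of the range. The lowest combination library for HSP90AA1, replicate 3, had 23081, with the next at 24887 and a gap of 0.643 of the range. Combination replicate 3 was also the lowest of its group for HSPA8, HSPH1, HSPD1 and HSPE1, and the highest for HSPB1 and BAG3. It was neither for HSPA1A, HSPA1B and DNAJB1. Chance flags about 1 in 20 such groups if they are independent, and the genes share their libraries. Without untreated replicate 6 (or EGCG replicate 2), HSPA8 was also called with EGCG, and without combination replicate 3, HSP90AA1 was.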

How the results depend on the processing

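The 7 chaperones whose libraries did not overlap with untreated cells stayed called lower with resveratrol and with the combination under the DESeq2 test, all scalings and filters, each set of replicates, the replicate block and each left-out library. The limit of 1.5-fold left 0 called chaperones with resveratrol against untreated cells, 2 with the combination, 0 with EGCG, 0 for the combination against resveratrol, 1 against EGCG and 0 for resveratrol against EGCG. It also ended the calls of the summed HSPA1A and HSPA1B, at -0.12, -0.26 and -0.32 for EGCG, resveratrol and the combination against untreated cells and -0.20 and -0.14 for the combination and resveratrol against EGCG. The 2 EGCG calls became 1 with every gene of at least 1 count, 0 at an adjusted p under 0.05, 7 by the unadjusted p alone, 0 in replicates 1 to 3, 0 in replicates 4 to 6, and 0 to 3 with 1 library left out. The summed pair kept its EGCG value of -0.12 but not its call at an adjusted p under 0.05 and in replicates 1 to 3 or 4 to 6. Leaving out 1 library gave it -0.13 to -0.10 with EGCG, and its call was lost in 13 of 24 such fits. For resveratrol against EGCG the summed pair was at -0.061 and not called with library size alone. The 4 calls of the combination against resveratrol became 1 in replicates 1 to 3 and 1 in replicates 4 to 6, 3 with every gene of at least 1 count, 6 by the unadjusted p alone and 4 to 6 with 1 library left out. The 8 calls against untreated cells became 7 to 9 with resveratrol and 7 to 8 with the combination when 1 library was left out. The causes were not tested, except that fewer libraries entered the sets of replicates. Under these changed rules, a share of all genes is given only for the 1.5-fold limit with the combination against untreated cells, at 11.9%. The other counts of chaperones, such as those by the unadjusted p alone, therefore cannot be set against how common such calls are.

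Some small values changed sign. With library size alone, which moves the median of all genes by 0.092 with resveratrol and 0.081 with the combination, DNAJB1 was at 0.027 and 0.024, HSBP1 at 0.031 and 0.013, HSF1 at 0.021 and 0.037, and DNAJB1 for the combination against resveratrol at -0.0026. In replicates 1 to 3 HSPB1 and BAG3 were at -0.0053 and -0.031 with resveratrol, and HSPB1 at 0.089 for the combination against resveratrol. In replicates 4 to 6 DNAJB1 and BAG3 were at -0.031 and -0.043 in that comparison, and HSBP1 and CRYAB at 0.00051 and -0.076 for the combination against untreated cells. Adding pseudogene counts, chosen after seeing the data, put HSPB1 at 0.0056 against resveratrol. With 1 library left out, BAG3 ranged from -0.0096 to 0.028 with resveratrol, from -0.0055 to 0.033 with the combination and from -0.015 to 0.025 between them, and in this last comparison DNAJB1 ranged from -0.0058 to 0.014 and HSPB1 from -0.045 to 0.019.

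DNAJB1 lost its resveratrol call without untreated replicate 5, EGCG replicate 1, 2, 4 or 6, or resveratrol replicate 1, 3 or 4. It lost its combination call without untreated replicate 2, 3, 4 or 5, the same EGCG replicates, or combination replicate 5 or 6. Both calls were also lost with either other filter on low counts and when the compared groups were fitted alone. Replicate numbers are shared between groups. Of 36 pairs of same-numbered libraries, 2 had deviations correlated above 0.1 (-0.011 to 0.13, median 0.049). Among the 24 libraries, 11 correlated best with their own number. These values do not settle whether the numbers pair samples, and the main fit treats the libraries as unpaired. The replicate block gave 3 calls after EGCG, 9 after resveratrol and 9 after the combination against untreated cells, the additions being HSPA1B with EGCG (adjusted p = 0.0703) and HSPB1 with the others, and 4, 8, 8 and 0 in the other comparisons. Depth limits the low genes of the lists, such as HSF4 and CRYAB, more than the 10 chaperones.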
